A study of Homo sapiens with 18 samples.

Results

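The 10 genes VIM, FN1, CDH2, CDH11, SNAI1, SNAI2, ZEB1, ZEB2, TWIST1 and TWIST2 are structural markers and transcription factors of the mesenchymal cell state. They were taken by symbol from count files of 60642 gene symbols, and each of the 10 was found there. RNA was sequenced from MDA-MB-231 cells, an established human line of triple-negative breast cancer, to ask which genes of the glucocorticoid response depend on PRMT5 and HP1γ. Cells received SMART-pool siRNAs, which are mixtures of siRNAs against 1 gene, and were then given dexamethasone (Dex, 100 nM) or the ethanol vehicle (Eth) for 8 h. The 6 conditions, with 3 libraries each, were siNS Eth, siNS Dex, siHP1γ Eth, siHP1γ Dex, siPRMT5 Eth and siPRMT5 Dex, where siNS is a non-specific control siRNA. All 6 conditions were transfected, and before experiments the cells were kept in medium with charcoal-stripped serum, which is low in steroids. The depletions were transient, and no untransfected cells and no single siRNA are among the 18 libraries.

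The counts per library were 9192643, 9994871 and 9852578 in siNS Eth and 11517559, 9486609 and 11299486 in siNS Dex. In siHP1γ cells they were 9282074, 10409833 and 10874249 with Eth and 12327634, 9953398 and 10244205 with Dex. In siPRMT5 cells they were 9229449, 8682992 and 10047082 with Eth and 10225497, 12472381 and 9014181 with Dex. Levels are given as counts-per-million (CPM), scaled between libraries by the trimmed mean of M-values (TMM). At these depths, 3 counts, taken as the limit that a count of 0 allows, correspond to 0.236 to 0.352 CPM, and this limit covers counting error only. The study calls the 3 libraries of a condition biological replicates, so p-values measure the spread between them.

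Epithelial cells hold each other through E-cadherin, the product of CDH1, and can pass to a mesenchymal state in which they separate and migrate, the epithelial to mesenchymal transition (EMT). The transition is driven by transcription factors of the Snail family (SNAI1 and SNAI2, whose product is also called Slug), the ZEB family (ZEB1 and ZEB2) and the TWIST family (TWIST1 and TWIST2). The Snail and ZEB factors bind E-boxes, the short DNA motif CACCTG among them, and are known to repress CDH1 and other epithelial genes. Mesenchymal cells make vimentin (VIM), an intermediate filament protein, fibronectin (FN1), a protein of the extracellular matrix that integrins bind, N-cadherin (CDH2) and cadherin-11 (CDH11). MDA-MB-231 is known as a mesenchymal-like line, and in breast epithelial and cancer cells glucocorticoids act through the glucocorticoid receptor, the product of NR3C1. PRMT5 is an arginine methyltransferase, and HP1γ, the product of CBX3, is a chromatin protein that binds methylated histone H3.

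Both siRNA targets were low under their own siRNA. The level of PRMT5 was 249 ± 19.96 CPM (SD, n = 3) in siNS Eth and 7.41 ± 1.17 CPM in siPRMT5 Eth, and 239 ± 11.4 CPM in siNS Dex and 10.5 ± 1.07 CPM in siPRMT5 Dex. CBX3 stood at 256 ± 20.1 CPM in siNS Eth and 9.89 ± 0.657 CPM in siHP1γ Eth, and at 230 ± 10.3 CPM in siNS Dex and 13.7 ± 2.23 CPM in siHP1γ Dex. In siHP1γ cells PRMT5 itself was lower than in siNS cells, with a log2 fold change of -0.25 without Dex and -0.35 with Dex. Known glucocorticoid targets served as a check of Dex: TSC22D3 was at 19.0 ± 1.02 CPM in siNS Eth and 236 ± 36.7 CPM in siNS Dex. FKBP5 was at 113 ± 1.82 and 503 ± 1.90 CPM in the same conditions, and PER1 at 13.4 ± 2.27 and 78.5 ± 8.38 CPM. NR3C1 ranged from 127 to 167 CPM over the condition means. In siNS cells it was at 160, 141 and 144 CPM with Eth and at 122, 130 and 130 CPM with Dex. In siHP1γ cells it was at 138, 138 and 135 CPM with Eth and at 149, 129 and 116 CPM with Dex. In siPRMT5 cells it was at 150, 166 and 186 CPM with Eth and at 145, 176 and 153 CPM with Dex. Its siNS Dex libraries overlapped neither those of siNS Eth nor those of siPRMT5 Dex. RNA of a whole culture was measured, so fewer cells of a type and less RNA per cell cannot be told apart.

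The promoter sequences of FN1 and ZEB1 are printed because a motif that was looked for lies in each, and because the Dex response of FN1 differed between siNS and depleted cells. RefSeq promoters (build GRCh38.p14, 250 bases before to 50 after a start site) matched 6 of the 10 genes, namely VIM, FN1, CDH2, ZEB1, ZEB2 and TWIST2. The motifs searched, on both strands, were the E-box CACCTG, the general E-box CANNTG, which includes CACCTG, the glucocorticoid response element part TGTTCT and the cyclic AMP response element TGACGTCA. Of 35116 promoters of this length, 20.6% held CACCTG, 68.7% CANNTG, 14.8% TGTTCT and 1.85% TGACGTCA. In the FN1 promoter (chr2:215436019-215436318, minus strand) the capitals mark TGACGTCA, which begins at base -183 from the start site. In the ZEB1 promoter (chr10:31318167-31318466, plus strand) the capitals mark CAGGTG, which is CACCTG on the other strand, at -57. This whole window lies before the start of ZEB1 at chr10:31318495 given below, so its offsets hold for the RefSeq start site only.
FN1: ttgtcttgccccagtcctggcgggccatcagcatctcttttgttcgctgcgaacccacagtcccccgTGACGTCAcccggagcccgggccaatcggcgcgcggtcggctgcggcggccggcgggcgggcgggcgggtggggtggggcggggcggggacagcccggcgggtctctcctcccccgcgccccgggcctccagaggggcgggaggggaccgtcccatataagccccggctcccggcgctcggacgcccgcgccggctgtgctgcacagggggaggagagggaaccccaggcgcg
ZEB1: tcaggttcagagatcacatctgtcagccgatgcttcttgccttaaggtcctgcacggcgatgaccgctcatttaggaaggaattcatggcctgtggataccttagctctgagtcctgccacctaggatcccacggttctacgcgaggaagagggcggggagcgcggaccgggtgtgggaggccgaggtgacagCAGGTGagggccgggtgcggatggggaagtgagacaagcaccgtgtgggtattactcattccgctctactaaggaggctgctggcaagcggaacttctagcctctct
ZEB1 also held CANNTG at -234, and ZEB2 held it at -180. TGTTCT was not found in the window of any of the 6 promoters, and VIM, CDH2 and TWIST2 held none of the 4 motifs. A match describes letters and is not a binding site, and a window without a match says nothing of the factor.

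To compare genes with each other, the CPM was divided by the length of a gene's exons in kb (GENCODE 44). In siNS Eth cells VIM was highest of the 10 genes, at 1614 ± 71.4 CPM per kb (SD, n = 3). ZEB1 followed at 30.9 ± 1.95 CPM per kb, then SNAI2 at 8.58 ± 0.366 and FN1 at 8.31 ± 0.814 CPM per kb, whose ranges overlapped. SNAI1 was at 3.13 ± 0.780, TWIST1 at 1.59 ± 0.407 and ZEB2 at 0.803 ± 0.0917 CPM per kb, and none of these 3 overlapped its neighbours in the order. Per length, ZEB1 was therefore the most abundant of the 6 transcription factors without treatment. CDH2 was at 0.0323 ± 0.0249 CPM per kb, and CDH11 and TWIST2 had no count in the 3 libraries. Over the 18 libraries VIM ranked 1 of the 60642 symbols by mean CPM, with 7463 CPM, and 7 by CPM per kb among 13559 tested genes with a length. VIM was the top gene in 16 of the 18 libraries, and HSP90AA1 in siNS Eth replicate 1 and siHP1γ Dex replicate 1.

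**Figure D1:**
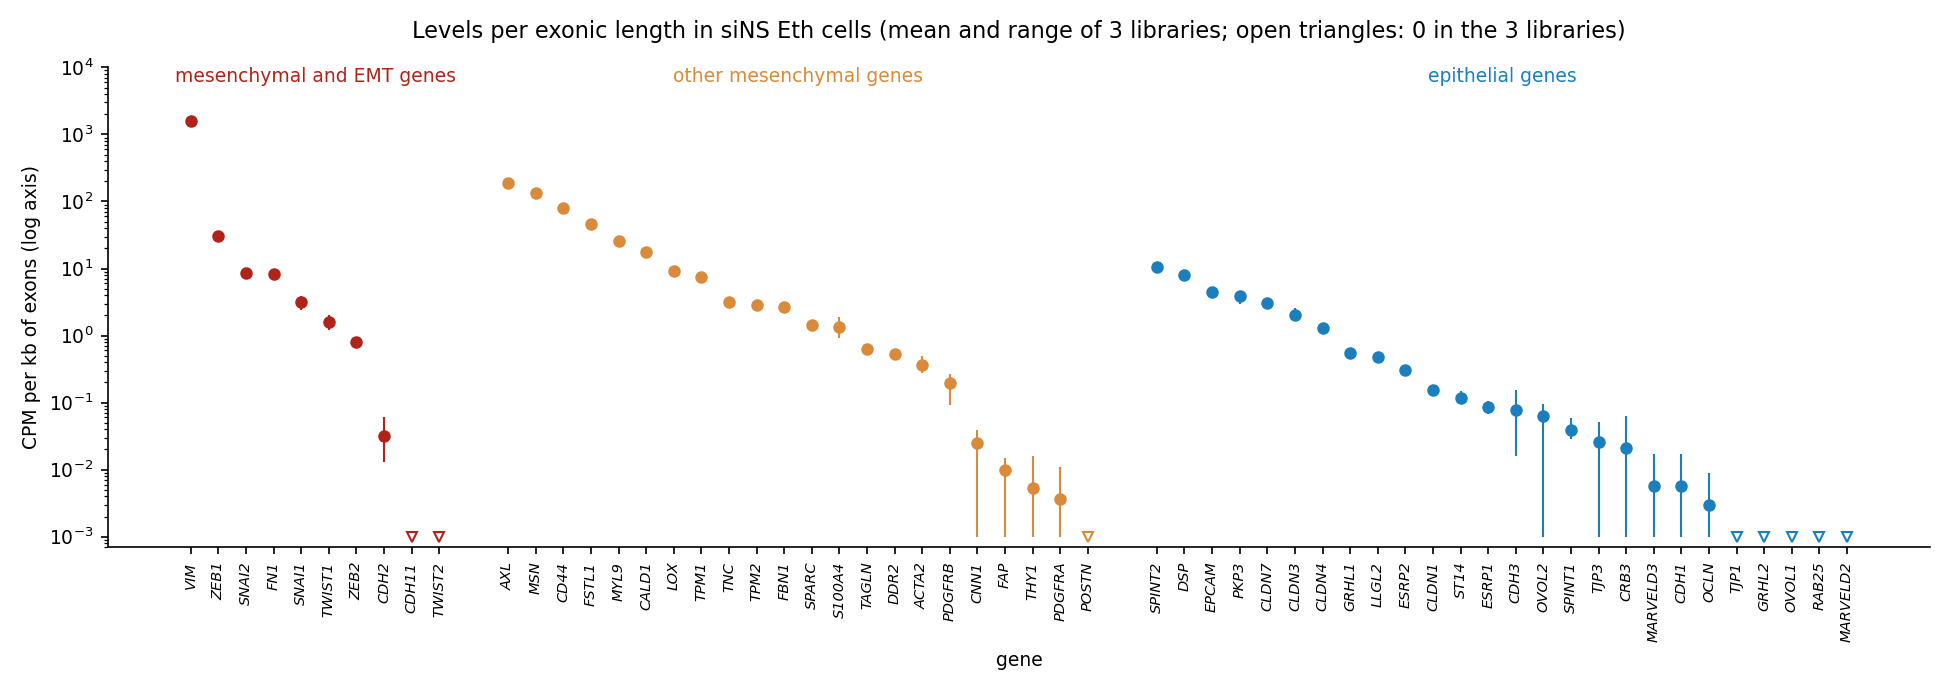
Mean CPM per kb of exons (log axis) of the 10 genes, of other mesenchymal genes and of epithelial genes in siNS Eth cells, with the range of 3 libraries as bars; values of 0 are drawn at the lower edge and open triangles mark genes at 0 in all 3. VIM stands at 1614 CPM per kb, and ZEB1, the next of the 10, at 30.9.

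The mesenchymal label was checked with marker genes. Of 5 mesenchymal markers, VIM, FN1 and ZEB1 had a mean of at least 1 CPM, while CDH2 and CDH11 did not. Summed over the 5, the level was between 1101 CPM per kb (siHP1γ Dex replicate 1) and 1917 CPM per kb (siPRMT5 Eth replicate 2), and VIM makes up most of it. Of 7 epithelial markers, EPCAM, CLDN3, CLDN4 and CLDN7 had a mean of at least 1 CPM, and CDH1, ESRP1 and GRHL2 did not, with a summed level of 8.82 to 13.2 CPM per kb. These 7 leave out abundant genes of the epithelial list, so the sum is not the level of all epithelial genes. Over the 18 libraries SPINT2 had a mean of 9.44, DSP of 7.32 and PKP3 of 4.26 CPM per kb. CDH1 had 1 count in all 18 libraries together, in siNS Eth replicate 3. The label therefore holds for vimentin, fibronectin and ZEB1, while N-cadherin, cadherin-11 and TWIST2 transcripts were at or near the detection limit. CDH2 had 39 counts over the 18 libraries, 0 to 5 in each, CDH11 had 4 counts in 3 libraries, and TWIST2 had 1 count, in siHP1γ Dex replicate 3. TJP1, a gene of the epithelial list, had 7 counts in total. The reason is not known, so a count near 0 in these data need not mean little RNA. Of the markers of the triple-negative subtype, ESR1 had 8 counts and PGR 2 counts in total, ERBB2 a mean of 30.3 CPM, and EGFR a mean of 204 CPM.

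Markers of other cell types (PTPRC, CD3E, LYZ, PECAM1 and VWF) were low, and their sum moved with the conditions through PECAM1. Their summed level was 1.88, 2.14 and 2.28 CPM in siNS Eth, 4.42, 4.25 and 4.90 in siNS Dex, 3.29, 3.46 and 2.52 in siHP1γ Eth, and 3.94, 4.40 and 5.17 in siHP1γ Dex. It was 3.97, 3.87 and 3.10 CPM in siPRMT5 Eth and 6.06, 6.99 and 8.26 in siPRMT5 Dex. PECAM1, an adhesion molecule of endothelial cells, was the most abundant, with a mean of 3.72 CPM, and the 1 of the 5 with enough counts for a test. It was past the threshold in the Dex response of siNS cells (log2 fold change 1.67) and of siPRMT5 cells (1.06), and in HP1γ depletion without Dex (1.03) and PRMT5 depletion with (0.71) and without Dex (1.31). The leukocyte marker PTPRC had 8 counts in total and CD3E 1 count, so defining markers of white blood cells were near 0, as were LYZ with 16 counts and VWF with 56. VWF, the other endothelial marker, was not tested and did not follow PECAM1, with means of 0.629 CPM in siNS Eth, 0.348 in siNS Dex, 0.147 in siPRMT5 Eth and 0.175 in siPRMT5 Dex. Whether cells of another type contributed to the RNA of FN1 or SNAI2 was not tested.

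The positions on hg38 and the neighbouring genes bear on how well each gene can be counted. FN1 lies at chr2:215360440-215436073 on the minus strand and has no annotated gene over it. VIM lies at chr10:17228241-17237593 on the plus strand, over part of the antisense gene VIM-AS1, which had 2867 counts in total against 1356874 for VIM. ZEB1 lies at chr10:31318495-31529814 on the plus strand, over part of ZEB1-AS1, which had 2424 counts against 45455 for ZEB1. SNAI1 (chr20:49982980-49988886, plus) and ZEB2 (chr2:144364364-144521057, minus) each have a gene named as their pseudogene among the symbols, SNAI1P1 and ZEB2P1, and ZEB2 lies over part of ZEB2-AS1, which had no count. SNAI2 (chr8:48917598-48921740, minus) and TWIST1 (chr7:19020991-19117636, minus) overlap an unnamed antisense transcript. CDH11 (chr16:64943753-65126112, minus) shares exons with an unnamed transcript on its own strand, and CDH2 (chr18:27932879-28177946, minus) overlaps one on the other strand. TWIST2 (chr2:238848032-238910534, plus) has no annotated gene over it. Whether the reads were counted by strand is not stated, the mapping program does not split reads over introns, and reads in shared exons can be set aside, so a low count such as that of CDH11 is a lower limit for the RNA present. The kit's name does not say whether whole transcripts or their ends were sequenced, and in the last case a level per kb of exons would be too low for long transcripts such as ZEB2.

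FN1, the gene of fibronectin, moved with Dex under every siRNA and, without Dex, with both depletions. In siNS cells it was at 137, 159 and 134 CPM with Eth and at 481, 486 and 469 CPM with Dex. In siHP1γ cells it was at 244, 207 and 219 CPM with Eth and at 386, 464 and 384 CPM with Dex. In siPRMT5 cells it was at 329.6, 384 and 369 CPM with Eth and at 549.7, 669.7 and 667 CPM with Dex. Dex libraries were above Eth libraries under each siRNA with no overlap, and without Dex both depletions were above siNS. The order of the means was siPRMT5 Dex (629 CPM), siNS Dex (479), siHP1γ Dex (411), siPRMT5 Eth (361), siHP1γ Eth (223) and siNS Eth (143). In this order siHP1γ Dex and siPRMT5 Eth overlapped, while the other neighbours did not. In CPM the difference between Dex and Eth was 335 in siNS, 188 in siHP1γ and 268 in siPRMT5 cells. FN1 transcripts without Dex thus started from a higher level in depleted cells, and their difference with Dex was smaller in CPM as well as in fold.

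SNAI2, the gene of the Slug repressor, moved with Dex under every siRNA. In siNS cells it was at 29.5, 27.8 and 27.1 CPM with Eth and at 143, 145 and 154 CPM with Dex. In siHP1γ cells it was at 26.7, 26.5 and 28.5 CPM with Eth and at 130.2, 128 and 121 CPM with Dex. In siPRMT5 cells it was at 31.9, 34.1 and 31.9 CPM with Eth and at 138, 142 and 141 CPM with Dex. The lowest of the 9 Dex libraries was at 121 CPM and the highest of the 9 Eth libraries at 34.1 CPM. The means ran from siNS Dex (147 CPM) over siPRMT5 Dex (140.4), siHP1γ Dex (126), siPRMT5 Eth (32.6) and siNS Eth (28.1) to siHP1γ Eth (27.2), and the lowest pair overlapped. With Dex, SNAI2 stood at 44.9 CPM per kb in siNS cells, above ZEB1 at 28.7 and FN1 at 27.8 CPM per kb. Without the division by length the order of the factors turned, with ZEB1 at 248 and SNAI2 at 147 CPM.

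SNAI1, the gene of the Snail repressor, was a gene of low level that stood out in HP1γ-depleted cells. In siNS cells it was at 4.09, 5.20 and 6.73 CPM with Eth and at 4.68, 4.58 and 5.08 CPM with Dex. In siHP1γ cells it was at 9.76, 11.1 and 12.52 CPM with Eth and at 7.71, 8.31 and 10.3 CPM with Dex. In siPRMT5 cells it was at 5.69, 5.05 and 5.30 CPM with Eth and at 3.62, 2.795 and 3.51 CPM with Dex. All 6 siHP1γ libraries were above the other 12, and the siPRMT5 Dex libraries were the 3 lowest of the 18. These levels rest on 31 to 139 counts per library.

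VIM, the gene of vimentin, was high in every library, from 5444 CPM in siHP1γ Dex replicate 1 to 9592 CPM in siPRMT5 Eth replicate 2. In siNS cells it was at 8015, 8749 and 8301 CPM with Eth and at 6725, 7201 and 7166 CPM with Dex. In siHP1γ cells it was at 7240, 6646 and 6551 CPM with Eth and at 5444, 5810 and 6122 CPM with Dex. In siPRMT5 cells it was at 9439, 9592 and 8674 CPM with Eth and at 7634, 7194 and 7834 CPM with Dex. Under each siRNA the Dex libraries were below the Eth libraries, and the lowest 3 of the 18 were those of siHP1γ Dex. The means ran from siPRMT5 Eth (9235 CPM) over siNS Eth (8355), siPRMT5 Dex (7554), siNS Dex (7031) and siHP1γ Eth (6812) to siHP1γ Dex (5792). Of these neighbours, siNS Eth and siPRMT5 Dex did not overlap, nor did siHP1γ Eth and siHP1γ Dex.

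ZEB1 lay between 161 (siHP1γ Dex replicate 3) and 358 CPM (siPRMT5 Eth replicate 2), with condition means from 210.3 to 294 CPM that each overlapped the next. In each of the 6 conditions replicate 2 was the highest. With Eth and Dex it was at 286 and 287.5 CPM in siNS, 253 and 240.4 in siHP1γ, and 358 and 299 in siPRMT5 cells. The tests below have no term for the replicate number. With that number as a block, ZEB1 was not called in any comparison. ZEB2 lay between 14.4 and 30.5 CPM, with its highest means in siHP1γ Eth (26.9) and siHP1γ Dex (25.0), and its lowest in siPRMT5 Eth (18.03). The siHP1γ Dex libraries of ZEB2 did not overlap those of siPRMT5 Dex, next in the order, and the other neighbours overlapped. TWIST1 lay between 2.43 and 6.71 CPM, from 22 to 76 counts, with the lowest mean in siNS Eth (3.18 ± 0.812) and the highest in siPRMT5 Dex (5.34 ± 0.772), and neighbours in its order overlapped throughout. The means of CDH2 were 0.0358 to 0.354 CPM, those of CDH11 0 to 0.0783 CPM, and TWIST2 was above 0 in siHP1γ Dex replicate 3 with 0.0940 CPM.

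**Figure D2:**
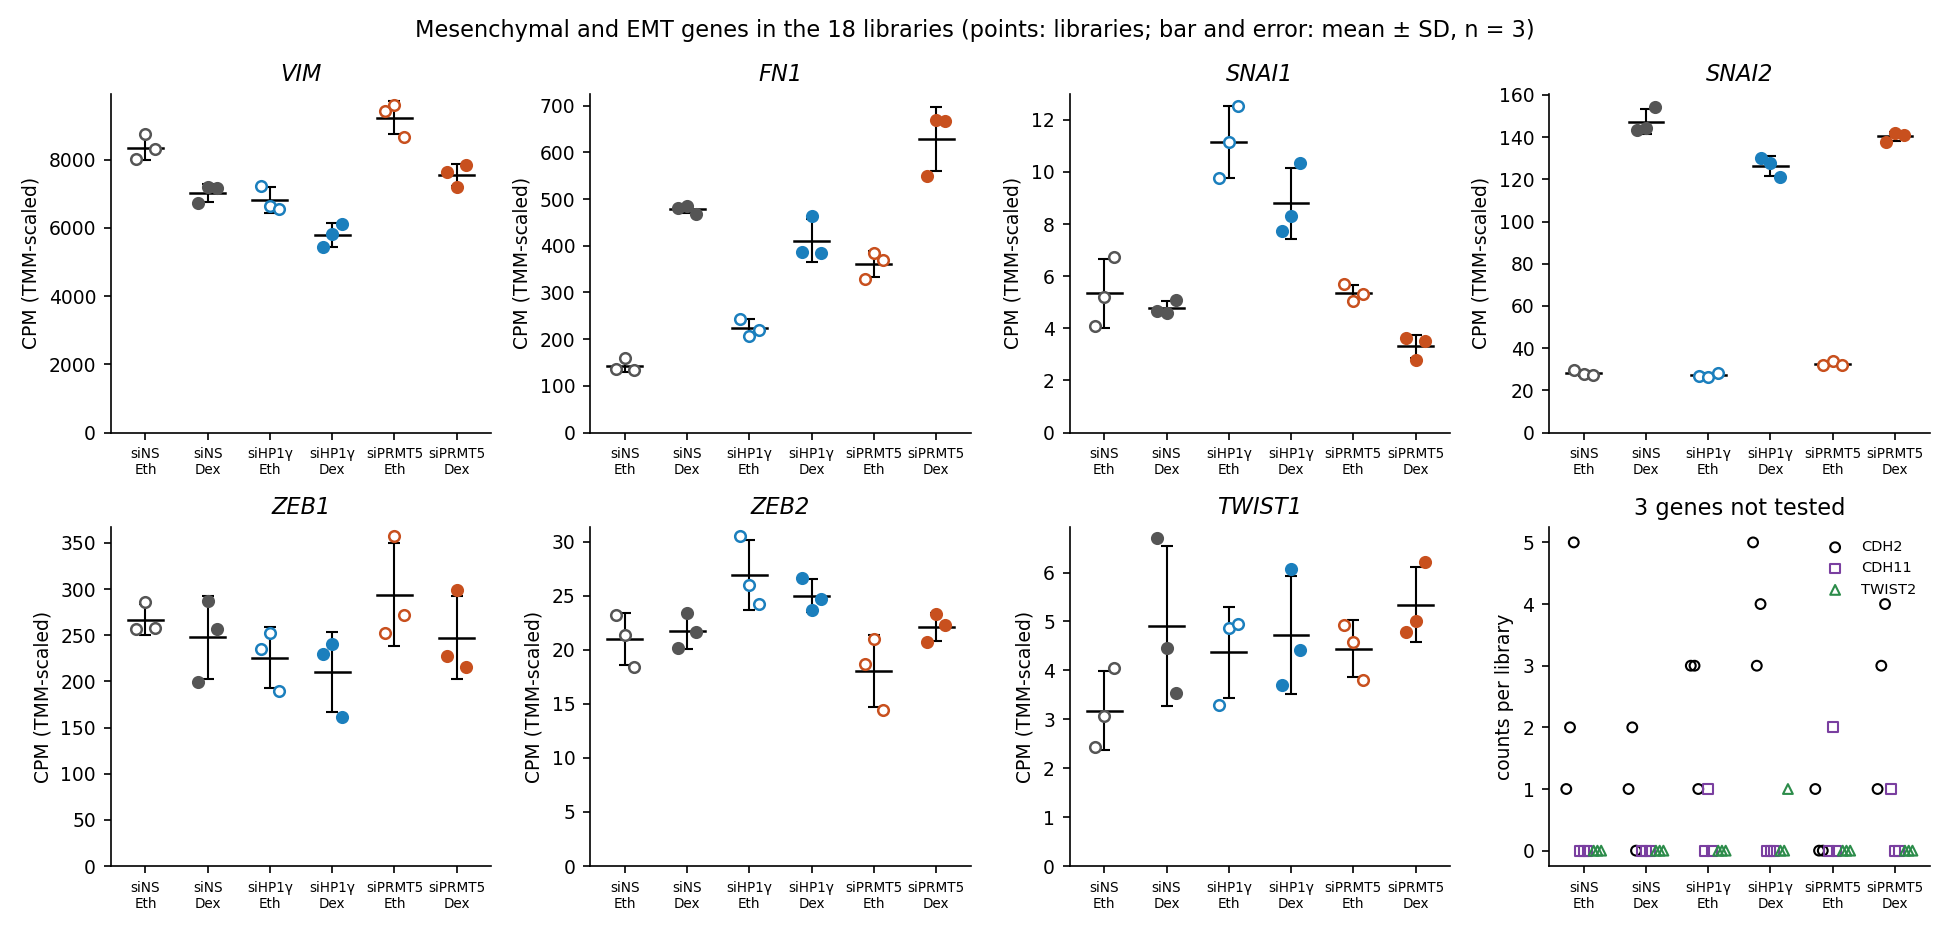
CPM of the 7 genes with enough counts in each of the 18 libraries, by condition (points, open for Eth and filled for Dex), with mean and SD of 3 libraries as bar and error, and counts per library of CDH2, CDH11 and TWIST2. FN1 rises from 143 to 479 CPM with Dex in siNS cells, SNAI2 separates Dex from Eth under each siRNA, and SNAI1 is highest in siHP1γ cells.

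For the comparisons, genes with enough counts were tested together by edgeR's quasi-likelihood test, and p-values were adjusted for 15298 genes. Of the 10 genes, 7 were tested, and CDH2, CDH11 and TWIST2 were not. A Dex response was called at an adjusted p under 0.01 with at least a 1.5-fold change, and a depletion or a change of the Dex response at an adjusted p under 0.05. With 3 against 3 libraries, the smallest p of an exact two-sided permutation test is 0.1, reached wherever the conditions did not overlap. The share of all 15298 genes whose conditions did not overlap is not given. A lack of overlap below therefore only describes the libraries and adds no support to a call. The 9 comparisons share libraries: the siNS Eth libraries serve the Dex response of siNS cells and both depletions without Dex, and the siNS Dex libraries serve the same response and both depletions with Dex. Both comparisons of an altered Dex response use all of these siNS libraries.

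In siNS cells Dex raised FN1 and SNAI2. The log2 fold change of FN1 was 1.74 (SE 0.0924, adjusted p = 1.5e-13), a 3.34-fold difference, and that of SNAI2 was 2.39 (SE 0.0714, adjusted p = 2.14e-18), a 5.24-fold difference. For both genes all 3 Dex libraries were above all 3 Eth libraries. These 2 of 7 tested genes were called, against 2.71% of all genes tested, and the median log2 fold change of the 7 was 0.05 against 0.00 over all genes. VIM had a log2 fold change of -0.25 (adjusted p = 0.0106), with all 3 Dex libraries lower. TWIST1 had 0.63 (SE 0.252, adjusted p = 0.129), with conditions that overlapped, and SNAI1 (-0.16), ZEB1 (-0.11) and ZEB2 (0.05) also overlapped. With no fold limit and an adjusted p under 0.05, both thresholds being looser, 3 of the 7 were called, VIM being the other one, against 9.16% of all genes. CDH2, CDH11 and TWIST2 had too few counts for a test.

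In the lists of related genes, those called with Dex in siNS cells were SOX9, ID1, LOX and ITGA5. Of the other EMT transcription factors, 6 of 12 were tested and 1 was called, with a median log2 fold change of 0.14: SOX9 fell by 1.14 (adjusted p = 2.44e-08). Among cofactors and turnover factors of the EMT regulators, 25 of 26 were tested and 1 was called (median -0.03), ID1, an inhibitor of basic helix-loop-helix factors, which rose by 1.36 (adjusted p = 8.19e-08). Of 17 tested genes among 22 other mesenchymal genes, 1 was called (median 0.01), LOX, a lysyl oxidase that crosslinks collagen, which rose by 1.12 (adjusted p = 5.96e-12). Of 9 partners of fibronectin and vimentin, 1 was called (median 0.08), ITGA5, the alpha subunit of the fibronectin receptor, which rose by 0.64 (adjusted p = 3.09e-07). Of all 15298 genes tested, 3420 were at an unadjusted p under 0.05 by edgeR. Of 11 tested genes among 27 epithelial genes, edgeR called 0 (median 0.01), with 6 at an unadjusted p under 0.05 and 0 by DESeq2. Of 7 tested catenins and other cadherins out of 8, edgeR called 0 (median 0.05), with 1 at an unadjusted p under 0.05 and 0 by DESeq2. For the called list genes named in the Dex responses and the depletions, the 3 libraries of a condition lay outside the range of the other 3, apart from ESRP2 below. EPCAM had a log2 fold change of -0.28 (adjusted p = 0.173), and CDH1 was not tested.

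In siHP1γ cells Dex raised the same pair of genes. The log2 fold change of FN1 was 0.88 (SE 0.0898, adjusted p = 1.24e-07), a 1.84-fold difference, and that of SNAI2 was 2.21 (SE 0.0710, adjusted p = 2.24e-17), a 4.64-fold difference, with all 3 Dex libraries above all 3 Eth libraries for each. The count of 2 of 7 stands against 1.67% of all genes tested, with a median of -0.10 against 0.00. VIM had -0.23 (adjusted p = 0.0247), with all 3 Dex libraries lower. At an adjusted p under 0.05 with no fold limit VIM was also called, which made 3 of 7 against 5.55%. The call of FN1 ended with a 2-fold limit. SNAI1 had -0.35 (adjusted p = 0.195), ZEB1 -0.10, ZEB2 -0.10 and TWIST1 0.08, with overlapping conditions, and CDH2, CDH11 and TWIST2 were not tested.

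Among the lists, 1 of 6 other EMT transcription factors was called in siHP1γ cells (median 0.14): SOX9 fell by 0.91 (adjusted p = 1.58e-06). ID1 rose by 1.16 (adjusted p = 3.64e-06), the 1 called of 25 cofactors and turnover factors (median -0.02). Of 17 other mesenchymal genes 2 were called (median -0.13): LOX rose by 1.12 (adjusted p = 9.73e-12), and TNC, the gene of the matrix protein tenascin-C, fell by 0.75 (adjusted p = 1.29e-06). By edgeR 0 of 11 epithelial genes (median -0.13), 0 of 7 catenins and cadherins (median -0.18) and 0 of 9 partners of fibronectin and vimentin (median -0.12) were called. At an unadjusted p under 0.05 these 3 lists had 2, 3 and 3 genes, and by DESeq2 0, 0 and 0. Of all 15298 genes tested by edgeR, 2753 were at an unadjusted p under 0.05. EPCAM had 0.03 (adjusted p = 0.92), and CDH1 was not tested.

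In siPRMT5 cells Dex raised FN1 and SNAI2 as well, from higher levels of FN1. The log2 fold change of FN1 was 0.80 (SE 0.0889, adjusted p = 1.41e-07), a 1.74-fold difference, and that of SNAI2 was 2.1066 (SE 0.0705, adjusted p = 5.41e-18), a 4.31-fold difference, and all 3 Dex libraries were above all 3 Eth libraries. The count of 2 of 7 stands against 5.44% of all genes, with a median of 0.26 against 0.00. SNAI1 had -0.71 (SE 0.201, adjusted p = 0.0151), with all 3 Dex libraries lower, and was called with the replicate number as a block (adjusted p = 0.00885). VIM had -0.29 (adjusted p = 0.00152), lower in all 3 Dex libraries and under the fold limit. With no fold limit VIM was also called, and with an adjusted p under 0.05 in addition SNAI1 as well, which made 4 of 7 against 16.0% of all genes. The call of FN1 ended with a 2-fold limit. ZEB2 had 0.30 (adjusted p = 0.108), TWIST1 0.26 (0.541) and ZEB1 -0.25 (0.307), with overlapping conditions, and CDH2, CDH11 and TWIST2 were not tested.

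The lists held more called genes in siPRMT5 cells, where more genes were called throughout. Of 6 other EMT transcription factors 2 were called (median 0.02): SOX9 fell by 1.47 (adjusted p = 1.82e-10) and SOX4 fell by 0.76 (adjusted p = 0.000208). ID1 rose by 0.88 (adjusted p = 4.75e-06), the 1 called of 25 cofactors and turnover factors (median -0.01). Of 11 epithelial genes 3 were called (median -0.25), the claudin genes of tight junctions CLDN4, which fell by 1.34 (adjusted p = 5.85e-06), and CLDN3, which fell by 1.03 (adjusted p = 0.00634), and GRHL1, which fell by 0.80 (adjusted p = 0.00276). By DESeq2, 2 of the 11 epithelial genes were called. Of 17 other mesenchymal genes 2 were called (median -0.04): LOX rose by 1.24 (adjusted p = 4.61e-13) and TNC fell by 0.95 (adjusted p = 2.01e-08). VCL, the gene of vinculin, rose by 0.82 (adjusted p = 9.8e-11), the 1 called of 7 catenins and cadherins (median -0.06). Of 9 partners of fibronectin and vimentin edgeR called 0 (median -0.07), with 5 at an unadjusted p under 0.05 and 0 by DESeq2. Of all 15298 genes tested by edgeR, 4078 were at an unadjusted p under 0.05. EPCAM had -0.18 (adjusted p = 0.372), and CDH1 was not tested.

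FN1 was the one of the 7 tested genes whose Dex response differed between siNS and depleted cells by a test of the difference itself. HP1γ depletion altered it by -0.86 on the log2 scale (95% confidence interval -1.12 to -0.60, adjusted p = 0.000872), and PRMT5 depletion by -0.94 (-1.20 to -0.68, adjusted p = 8.53e-05). With HP1γ depletion the count of 1 of 7 stands against 0.399% of all genes, with a median of -0.17 against -0.01, and with PRMT5 depletion 1 of 7 stands against 3.80%, with a median of -0.28 against 0.00. SNAI2 had -0.17 (-0.38 to 0.03, adjusted p = 0.383) with HP1γ and -0.28 (-0.49 to -0.08, adjusted p = 0.112) with PRMT5 depletion. For SNAI1 the values were -0.19 (adjusted p = 0.729) and -0.54 (0.283), for VIM 0.01 (0.953) and -0.04 (0.853), and for TWIST1 -0.54 (0.436) and -0.37 (0.615). ZEB1 had 0.01 (0.994) and -0.14 (0.773), and ZEB2 -0.15 (0.695) and 0.25 (0.456), and CDH2, CDH11 and TWIST2 were not tested. Among the known Dex targets, HP1γ depletion altered the response in the same direction as that of FN1, by -1.0025 for TSC22D3 (adjusted p = 0.00104) and by -0.75 for PER1 (0.0195), with -0.44 for FKBP5 (0.0588). With PRMT5 depletion the response of FKBP5 was altered by 0.84 (adjusted p = 2.31e-05), with -0.40 for TSC22D3 (0.125) and -0.20 for PER1 (0.491).

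**Figure D3:**
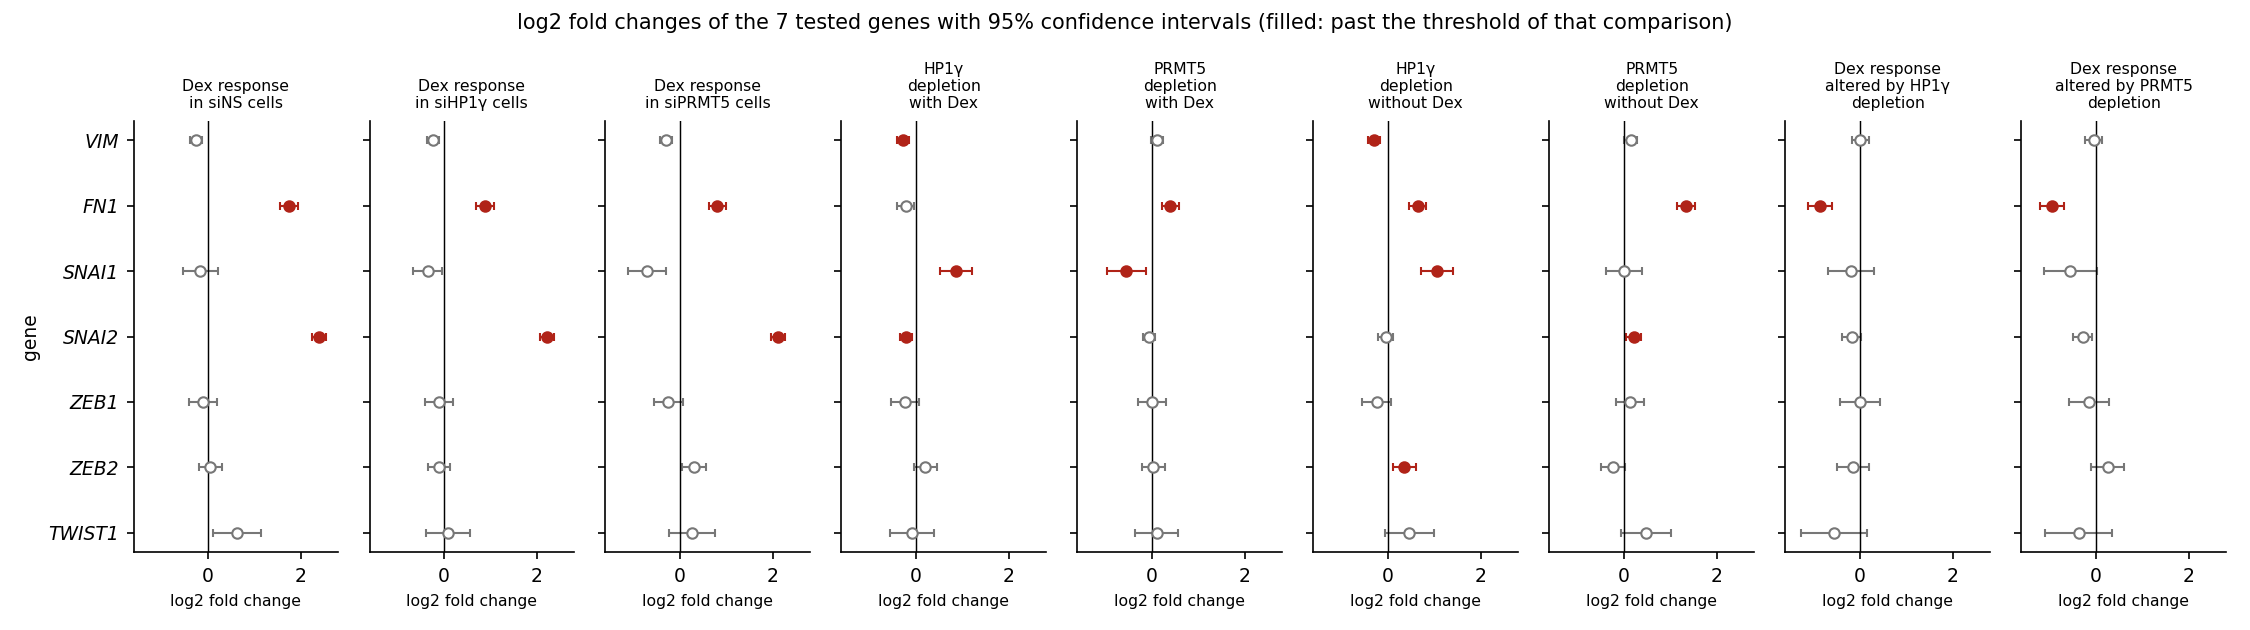
log2 fold changes (points) with 95% confidence intervals (bars) of the 7 tested genes in each of the 9 comparisons, from 18 libraries, filled where past the threshold of the comparison. FN1 lies at 1.74, 0.88 and 0.80 in the 3 Dex responses and at -0.86 and -0.94 where a depletion alters the response, and SNAI2 is above 2.10 in each Dex response.

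In the lists, HP1γ depletion altered the Dex response of 0 tested genes by edgeR in each of the 6 lists. Of all 15298 genes, 0.399% were called and 2636 were at an unadjusted p under 0.05 by edgeR. The other EMT transcription factors (median 0.05) had 0 genes at an unadjusted p under 0.05 and 0 by DESeq2, the cofactors and turnover factors (median -0.10) 3 and 0, and the epithelial genes (median -0.23) 2 and 0. The other mesenchymal genes (median -0.07) had 3 and 0, the catenins and cadherins (median -0.27) 3 and 1, and the partners of fibronectin and vimentin (median -0.16) 4 and 2. With PRMT5 depletion 3.80% of all genes were called, and 2912 of 15298 were at an unadjusted p under 0.05 by edgeR. In the lists 3 genes were called. SOX4, a transcription factor, was altered by -1.07 (adjusted p = 0.00364), 1 of 6 other EMT factors (median -0.09), its mean being 7.16 and 8.81 CPM in siNS and 15.2 and 9.04 CPM in siPRMT5 cells with Eth and Dex. DSP, the gene of desmoplakin in desmosomes, was altered by -0.55 (adjusted p = 0.0109), 1 of 11 epithelial genes (median -0.45). SYNM, the gene of synemin, an intermediate filament protein that joins vimentin, was altered by -0.62 (adjusted p = 0.00338), 1 of 9 partners (median -0.14). For the cofactors and turnover factors edgeR called 0 (median 0.00), with 5 at an unadjusted p under 0.05 and 0 by DESeq2, for the other mesenchymal genes 0 (median -0.10), with 4 and 0, and for the catenins and cadherins 0 (median -0.19), with 3 and 1. EPCAM was altered by 0.32 (adjusted p = 0.34) with HP1γ and by 0.10 (0.805) with PRMT5 depletion, and CDH1 was not tested.

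Without Dex, HP1γ depletion raised SNAI1, FN1 and ZEB2 and lowered VIM. SNAI1 had a log2 fold change of 1.06 (SE 0.163, adjusted p = 1.95e-05), a 2.08-fold difference, and FN1 had 0.64 (SE 0.0917, adjusted p = 7.45e-06), a 1.56-fold difference. ZEB2 had 0.36 (SE 0.119, adjusted p = 0.0243), and VIM had -0.29 (SE 0.0631, adjusted p = 0.000797). For these 4 genes the siHP1γ Eth and siNS Eth libraries did not overlap. The count of 4 of 7 stands against 31.8% of all genes tested, a share at which a call is common, with a median of 0.36 against 0.01. TWIST1 had 0.47 (adjusted p = 0.178), SNAI2 -0.05 (0.687) and ZEB1 -0.24 (0.229), ZEB1 with conditions that did not overlap, and CDH2, CDH11 and TWIST2 were not tested. Without siHP1γ Eth replicate 1 the adjusted p of ZEB2 was 0.148, and without siNS Eth replicate 3 it was 0.143. ZEB1 was called with no filter on low counts (adjusted p = 0.0206) and from the 6 libraries alone (0.0104).

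With HP1γ depletion without Dex, 31.8% of all genes were called, 2531 higher and 2329 lower. Of 17 other mesenchymal genes 7 were called, 4 higher (median 0.00), with PDGFRB, a receptor of platelet-derived growth factor, up by 1.59 (adjusted p = 0.000404), TNC up by 1.37 (4.76e-11), the calcium-binding protein gene S100A4 up by 0.90 (0.0424) and SPARC up by 0.47 (0.0137). Of 9 partners of fibronectin and vimentin 6 were called, 5 higher (median 0.23), with SYNM up by 0.85 (adjusted p = 2.95e-08), ITGA5 up by 0.61 (4.51e-07), the talin gene TLN1 up by 0.32 (0.00687) and the integrin gene ITGAV at -0.63 (0.000101). Among 6 other EMT transcription factors (median -0.04), HMGA2 was lower, at -0.40 (adjusted p = 0.000868). Of 25 cofactors and turnover factors 7 were called, 4 lower (median 0.01), among them the ubiquitin ligase gene FBXL5 at -0.45 (adjusted p = 8.1e-05), the histone methyltransferase gene EZH2 at -0.44 (0.000103), AJUBA at -0.27 (0.0137) and LOXL2 at 0.30 (0.00113). Of 7 catenins and cadherins 2 were called, both higher (median 0.08), JUP, the gene of plakoglobin, at 0.61 (adjusted p = 0.00126) and CDH24 at 0.51 (0.00215). The 11 epithelial genes had a median of 0.19. EPCAM had 0.16 (adjusted p = 0.344), and CDH1 was not tested.

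With Dex, HP1γ depletion raised SNAI1 and lowered VIM and SNAI2. SNAI1 had a log2 fold change of 0.87 (SE 0.168, adjusted p = 0.000387), a 1.83-fold difference, VIM had -0.28 (SE 0.0631, adjusted p = 0.00185), and SNAI2 had -0.22 (SE 0.0631, adjusted p = 0.0119), with no overlap between siHP1γ Dex and siNS Dex for any of these. The count of 3 of 7 stands against 24.0% of all genes, with a median of -0.22 against 0.00. FN1 had -0.22 (SE 0.0883, adjusted p = 0.0724), lower in all 3 siHP1γ libraries, and was called with no filter on low counts (adjusted p = 0.0242) and without siHP1γ Dex replicate 2 (0.0212). ZEB2 had 0.21 (adjusted p = 0.215), higher in all 3 siHP1γ libraries, ZEB1 -0.24 (0.269) and TWIST1 -0.08 (0.842), and CDH2, CDH11 and TWIST2 were not tested. The call of SNAI2 ended without siNS Dex replicate 3 (adjusted p = 0.0726), without siHP1γ Dex replicate 3 (0.0506), with scaling by library size alone (0.106, log2 fold change -0.14), with no filter (0.0635) and from the 6 libraries alone (0.0542). ZEB1 was called with no filter on low counts (adjusted p = 0.0192).

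With HP1γ depletion and Dex, 24.0% of all genes were called, 1787 higher and 1882 lower. In the lists, of 17 other mesenchymal genes 5 were called, 3 lower (median -0.04). Among these 5 were TNC at 1.18 (adjusted p = 1.85e-09), SPARC at 0.39 (0.0446), the fibrillin gene FBN1 at -0.62 (1.09e-06) and the receptor kinase gene AXL at -0.38 (3.57e-05). Of 9 partners of fibronectin and vimentin 5 were called, 3 higher (median 0.09), with SYNM at 0.70 (adjusted p = 6.33e-07), the syndecan gene SDC4 at 0.43 (0.000112), ITGAV at -0.37 (0.0143) and the transglutaminase gene TGM2 at -0.32 (0.000662). Of 7 catenins and cadherins 3 were called, each lower (median -0.15), CDH4 at -0.80 (adjusted p = 0.00136), CTNNA1 at -0.28 (0.00277) and VCL at -0.21 (0.0153). Of 25 cofactors and turnover factors 7 were called, 5 lower (median 0.03), with the kinase gene GSK3B at -0.45 (adjusted p = 0.000338), ID1 at -0.44 (0.013), EZH2 at -0.41 (0.000351) and FBXO45 at 0.27 (0.0294). HMGA2 at -0.47 (adjusted p = 0.000144) was the 1 called of 6 other EMT factors (median -0.01). EPCAM, the gene of an epithelial adhesion molecule, at 0.47 (adjusted p = 0.00482) was the 1 called of 11 epithelial genes (median -0.09), with CPM of 12.2, 11.5 and 14.01 in siHP1γ Dex and 8.57, 8.72 and 9.89 in siNS Dex. CDH1 was not tested.

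Without Dex, PRMT5 depletion raised FN1 and, by a small amount, SNAI2. FN1 had a log2 fold change of 1.33 (SE 0.0920, adjusted p = 1.35e-11), a 2.52-fold difference, and SNAI2 had 0.21 (SE 0.0771, adjusted p = 0.0292), a 1.16-fold difference, with all 3 siPRMT5 Eth libraries above all 3 siNS Eth libraries for both. The count of 2 of 7 stands against 42.1% of all genes tested, below the background share, with a median of 0.14 against 0.00. VIM had 0.14 (SE 0.0631, adjusted p = 0.0683), with conditions that overlapped, and was called by DESeq2 (adjusted p = 0.0419), with library size alone (0.0364), with no filter (0.0486) and without siNS Eth replicate 2 (0.0464) or siPRMT5 Eth replicate 3 (0.0319). SNAI1 had 0.00 (adjusted p = 0.996), ZEB1 0.14 (0.486), ZEB2 -0.23 (0.158) and TWIST1 0.47 (0.157), and CDH2, CDH11 and TWIST2 were not tested. The call of SNAI2 ended without siNS Eth replicate 2 (adjusted p = 0.0704), siNS Eth replicate 3 (0.103) or siPRMT5 Eth replicate 2 (0.107), with no filter (0.145) and from the 6 libraries alone (0.0913). ZEB2 was called without siPRMT5 Eth replicate 2 (adjusted p = 0.0475).

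With PRMT5 depletion without Dex, 42.1% of all genes were called, 3149 higher and 3297 lower, and the lists also held called genes in both directions. Of 17 other mesenchymal genes 9 were called, 5 higher (median 0.00), with AXL at -2.13 (adjusted p = 1.4e-18), the actin-binding caldesmon gene CALD1 at -1.93 (2.04e-15), S100A4 at 1.29 (0.00237) and TNC at 0.98 (6.02e-09). The mean of AXL was 963 ± 46.6 CPM in siNS Eth and 221 ± 9.12 CPM in siPRMT5 Eth, and that of CALD1 was 171 ± 9.01 and 44.9 ± 3.37 CPM. Of 9 partners of fibronectin and vimentin 7 were called, 4 higher (median -0.07), with SYNM at 1.03 (adjusted p = 3.07e-10), TLN1 at 0.71 (4.81e-07), the integrin gene ITGB1 at -0.73 (3.69e-10) and TGM2 at -0.59 (6.77e-08). Of 25 cofactors and turnover factors 12 were called, 8 higher (median 0.04), with ID3 at 1.95 (adjusted p = 4.81e-07), ID1 at 1.25 (1.04e-07), WTIP at -0.98 (0.00677) and the ubiquitin ligase gene FBXL14 at -0.60 (0.0101). Of 6 other EMT factors 4 were called, 3 lower (median -0.16), FOXC1 at -0.65 (adjusted p = 6.73e-05), HMGA2 at -0.43 (0.000228), TCF3 at -0.27 (0.00971) and SOX4 at 1.09 (1.12e-06). Of 7 catenins and cadherins 4 were called, 2 higher (median 0.04), JUP at 1.13 (adjusted p = 1.58e-07), VCL at 0.21 (0.00658), CDH4 at -0.94 (0.000357) and the beta-catenin gene CTNNB1 at -0.47 (2.77e-07). Of 11 epithelial genes 4 were called, 2 higher (median 0.02), GRHL1 at 0.70 (adjusted p = 0.00352), CLDN4 at 0.58 (0.00898), DSP at -1.01 (8.6e-10) and the protease inhibitor gene SPINT2 at -0.30 (0.0165). EPCAM had 0.08 (adjusted p = 0.656), and CDH1 was not tested.

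With Dex, PRMT5 depletion raised FN1 and lowered SNAI1. FN1 had a log2 fold change of 0.39 (SE 0.0881, adjusted p = 0.000731), a 1.31-fold difference, and SNAI1 had -0.55 (SE 0.201, adjusted p = 0.0306), a fold of 0.685, and neither overlapped between siPRMT5 Dex and siNS Dex. The count of 2 of 7 stands against 42.4% of all genes tested, below the background share, with a median of 0.03 against 0.00. SNAI2 had -0.07 (adjusted p = 0.398), although all 3 siPRMT5 libraries were lower, VIM had 0.10 (0.194), ZEB1 0.00 (0.995), ZEB2 0.03 (0.875) and TWIST1 0.10 (0.751), and CDH2, CDH11 and TWIST2 were not tested. The call of SNAI1 ended by DESeq2 (adjusted p = 0.0516), without siNS Dex replicate 1 (0.0569) or replicate 3 (0.0928), and without siPRMT5 Dex replicate 2 (0.151).

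With PRMT5 depletion and Dex, 42.4% of all genes were called, 3144 higher and 3344 lower. In the lists, of 17 other mesenchymal genes 10 were called, 5 higher (median -0.09). Among these 10 were AXL at -2.13 (adjusted p = 2.05e-18), CALD1 at -1.66 (2.06e-14), S100A4 at 0.91 (0.0268) and TNC at 0.60 (3.5e-05). Of 11 epithelial genes 5 were called, each lower (median -0.25), with DSP at -1.56 (adjusted p = 2.81e-13), LLGL2 at -1.07 (0.00141), the desmosomal plakophilin gene PKP3 at -0.53 (0.00585) and the splicing factor gene ESRP2 at -1.49 (0.00206), whose conditions overlapped. Of 9 partners of fibronectin and vimentin 6 were called, 3 higher (median -0.07), with ITGB1 at -0.87 (adjusted p = 1.41e-11), ITGAV at 0.51 (0.000398), SYNM at 0.41 (0.000328) and TLN1 at 0.40 (0.000727). Of 25 cofactors and turnover factors 11 were called, 7 higher (median 0.00), with ID3 at 1.86 (adjusted p = 6.23e-07), ID1 at 0.78 (8.69e-06), FBXL14 at -1.10 (4.68e-05) and WTIP at -0.79 (0.0151). Of 6 other EMT factors 4 were called, each lower (median -0.39), FOXC1 at -0.54 (adjusted p = 0.000496), HMGA2 at -0.48 (4.41e-05), TCF3 at -0.40 (0.00017) and SOX9 at -0.38 (0.0109). Of 7 catenins and cadherins 6 were called, 4 lower (median -0.28), with CDH4 at -1.07 (adjusted p = 3.15e-05), JUP at 0.55 (0.00169), the p120 catenin gene CTNND1 at -0.50 (0.0275) and CTNNB1 at -0.47 (2.32e-07). EPCAM had 0.18 (adjusted p = 0.267), and CDH1 was not tested.

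**Figure D4:**
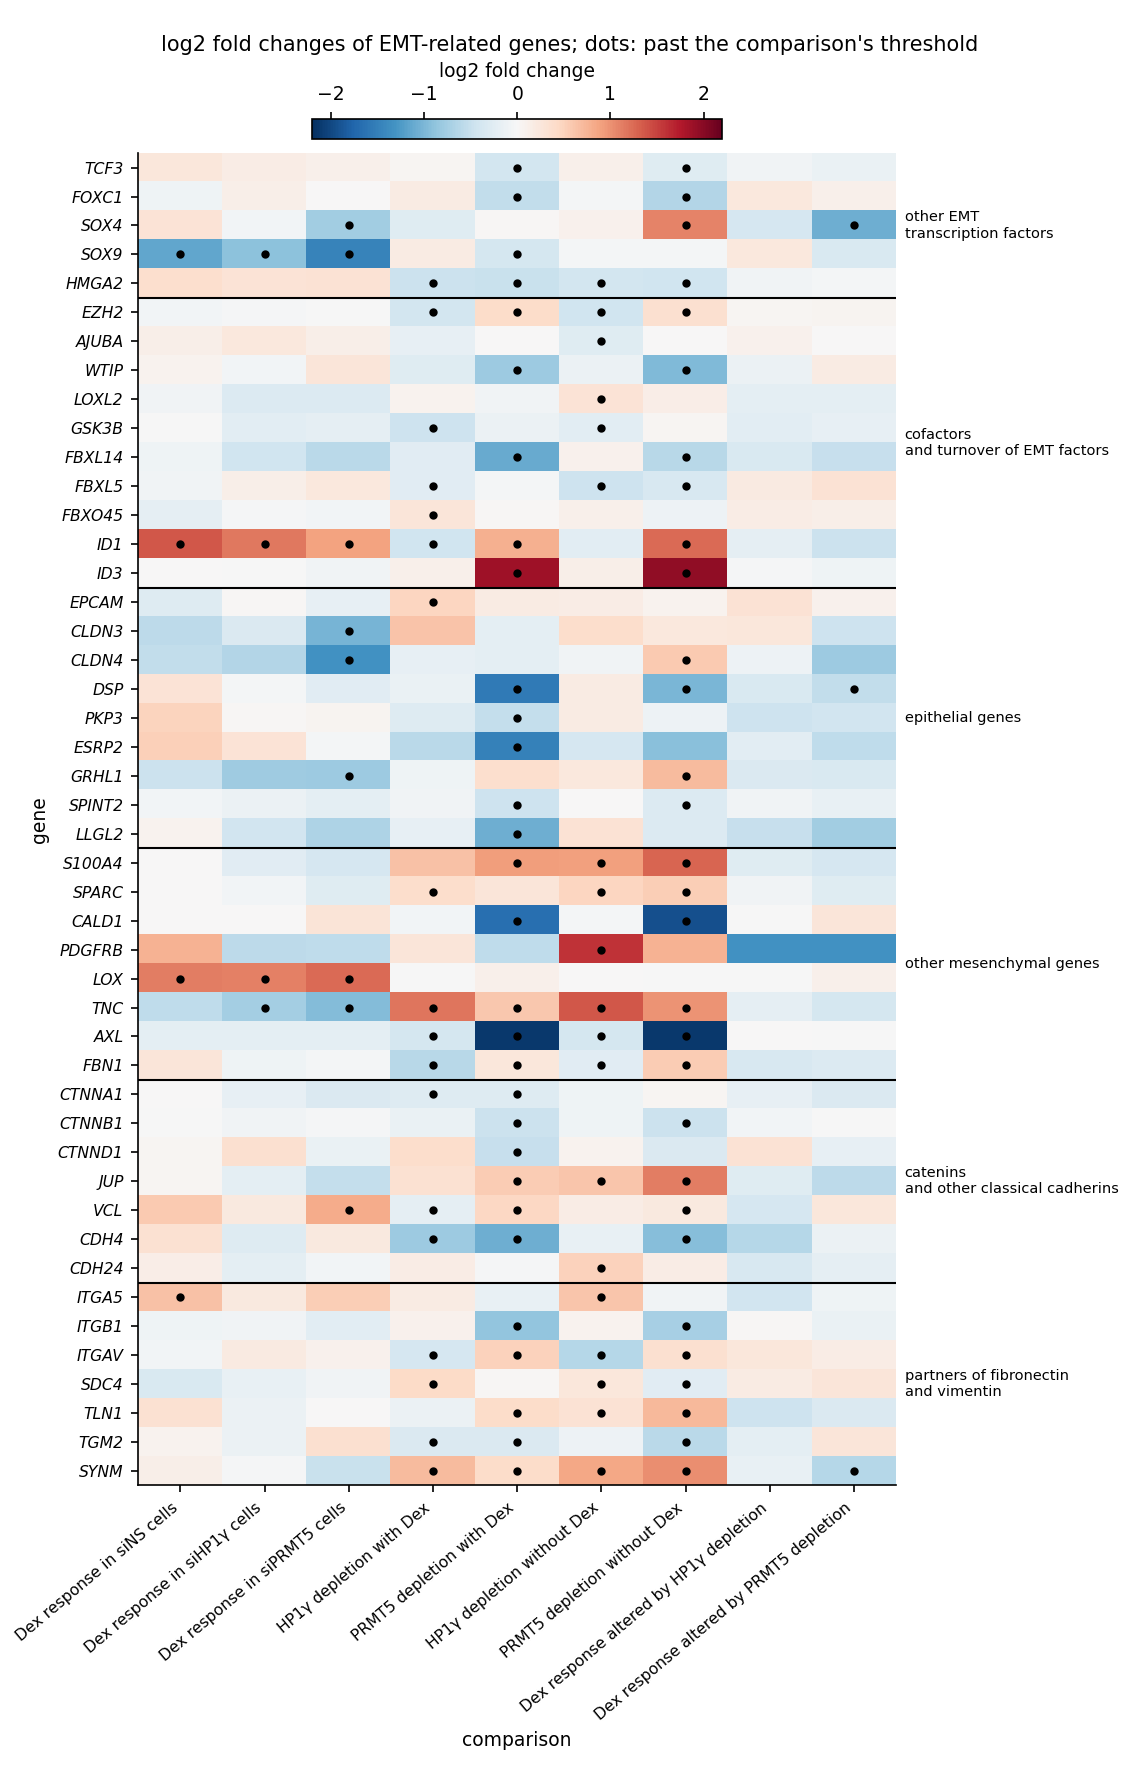
log2 fold changes (colour) in the 9 comparisons (columns) of the list genes named in the text (rows), grouped by list, with dots where a gene is past the threshold of the comparison. AXL is at -2.13 with PRMT5 depletion with and without Dex, LOX is dotted in the 3 Dex responses, and SOX4, DSP and SYNM are dotted where PRMT5 depletion alters the response.

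For the 6 genes whose mean reached 5 CPM, the genes most alike were sought among 11410 genes by Pearson's r of log2 CPM over the 18 libraries, which share conditions. FN1 was most like TNS2 (r = 0.97), ITGA10 (0.97) and FAT4 (0.97). In the condition means ITGA10, a collagen-binding integrin gene, went from 1.30 CPM in siNS Eth to 11.8 in siNS Dex and 33.8 in siPRMT5 Dex. SNAI2 was most like LOX (0.99), EFNB2 (0.99) and the metallothionein gene MT2A (0.985), each high in the 9 Dex libraries. MT2A went from 413 CPM in siNS Eth to 1770.0 CPM in siNS Dex. SNAI1 was most like KANK2 (0.96), the convertase gene FURIN (0.96) and DLGAP1-AS1 (0.96), each highest in siHP1γ Eth and lowest in siPRMT5 Dex. VIM was most like HJURP (0.97), CCDC69 (0.96) and CHST11 (0.94), ZEB1 like CENPE (0.86), CEP152 (0.86) and MATR3 (0.84), and ZEB2 like RIPK2 (0.87), ZMAT1 (0.84) and EME1 (0.83). Between the 6 genes themselves, r was 0.83 for FN1 and SNAI2 and lay between -0.61 (VIM and ZEB2) and 0.59 (VIM and ZEB1) for the other pairs. These values describe patterns over 18 libraries, so differences between libraries of a condition enter them as well as differences between conditions. They say nothing of shared control.

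**Figure D5:**
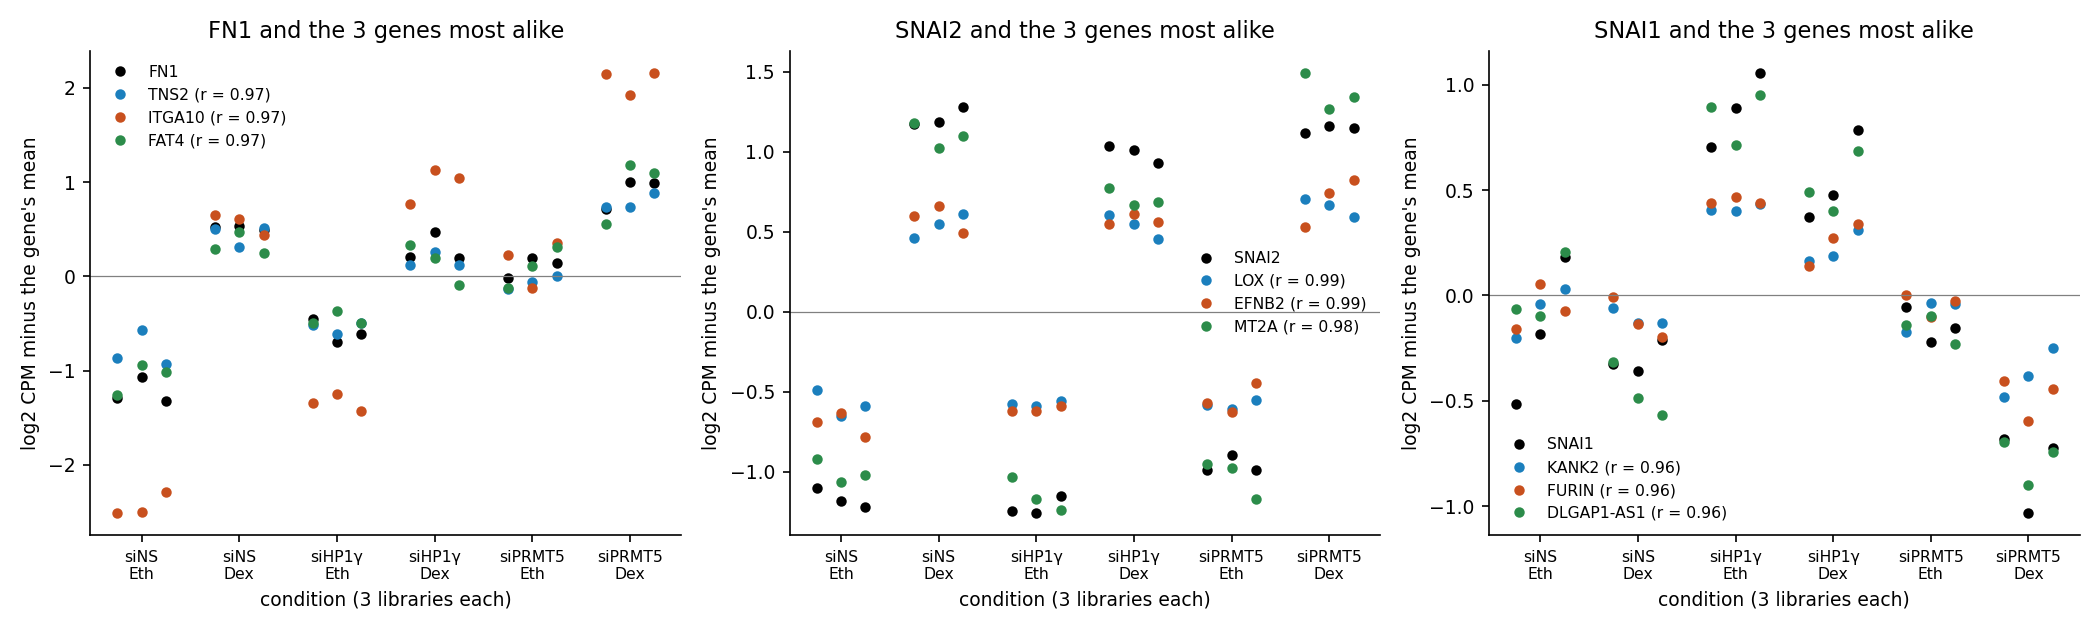
log2 CPM minus each gene's mean over 18 libraries (points, 3 libraries per condition) for FN1, SNAI2 and SNAI1 and the 3 genes most alike to each, with Pearson's r in the legend. SNAI2, LOX, EFNB2 and MT2A separate Dex from Eth under each siRNA, and SNAI1 and its 3 are highest in siHP1γ Eth.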

How the data were processed

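Counts per gene symbol for the 18 libraries, deposited by the authors without normalization, were the input. Before that the authors had used Lexogen kits, a NextSeq sequencer, Bowtie2 2.4.2 against hg38 and HTSeq 0.9.1. A deposited table of their own DESeq2 (2.11.40.7) comparisons was not used. The annotation and the strand setting of the counting are not stated. Library totals were 8682992 to 12472381.

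filterByExpr of edgeR 4.0.16 (R 4.3.3) kept 15298 genes, which were scaled by TMM. A single quasi-likelihood model with a mean for each of the 6 conditions left 12 residual df. The 9 comparisons are contrasts of it, adjusted by Benjamini-Hochberg over the 15298 genes. The adjusted p thresholds for the Dex response and the depletions are those of a legend of the study and the fold limit for Dex is that of its text, while the legend gives a higher fold limit. Each standard error was derived as the absolute fold change over the root of F. A test on simulated data with known changes was run before. Exon lengths and positions are from GENCODE 44, in which 37471 of the 60642 symbols were found.

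The genes named are the 10 members, CDH1, EPCAM, the marker and check genes, up to 4 called genes per list and comparison (the largest changes with a mean of 1 CPM or more), and the 3 genes most alike to each member of 5 CPM or more. HSP90AA1 was named outside this rule, as the top gene of some libraries, and TJP1 for its low count. The members and lists were chosen with earlier results of these data known.

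Alternatives were DESeq2 1.42.0, its size factors, library size alone, no filter, a filter of 10 or more counts throughout, a fit of the compared libraries alone, a replicate block, an adjusted p under 0.05 with no fold limit for Dex, and leaving out each of the 18 libraries. For Dex, no fold limit at an adjusted p under 0.01 and a limit of 2-fold were added after the data were seen. No library was left out of the values reported.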

Additional observations from a re-analysis of the deposited data

Results flagged for a closer look

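The Dex response of FN1 differed between siNS and depleted cells when the difference itself was tested. Its log2 fold change with Dex was 1.74 in siNS, 0.88 in siHP1γ and 0.80 in siPRMT5 cells, and the difference was -0.86 with HP1γ depletion and -0.94 with PRMT5 depletion (edgeR's quasi-likelihood test, adjusted p = 0.000872 and 8.53e-05). Without Dex, FN1 was at 143 CPM in siNS, 223 in siHP1γ and 361 in siPRMT5 cells. The differences with HP1γ and with PRMT5 depletion share the siNS libraries and are not independent. The cause of the difference was not tested.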

How the results depend on the processing

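Of 63 pairs of a tested gene and a comparison, 19 were called. The share of all genes called ran from 0.399% (Dex response altered by HP1γ depletion) to 42.4% (PRMT5 depletion with Dex). The 19 are therefore not a trait of these genes alone. Of the 19, 13 kept their call under every alternative. The other 6 lost it somewhere, and 0 of the 19 changed sign. Of the 44 pairs not called, 15 changed sign and 9 were called under some alternative. SNAI1 and TWIST1 rest on 31 to 139 and 22 to 76 counts per library, and CDH2, CDH11 and TWIST2 could not be tested.

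At an adjusted p under 0.05 with no fold limit, 4 of the 7 tested genes were called for Dex in siPRMT5 cells, against 16.0% of all genes. The other counts in this paragraph have no share of all genes under the same setting beside them. In the values reported, the share for Dex was 1.67% in siHP1γ and 5.44% in siPRMT5 cells. For PRMT5 depletion it was 42.4% with and 42.1% without Dex. With a 2-fold limit, chosen after the data were seen, 1 gene was called for Dex in siHP1γ cells and 1 in siPRMT5 cells, FN1 being lost in both. For PRMT5 depletion with Dex, DESeq2 called 1 gene, and leaving out single libraries gave 1 to 2. For PRMT5 depletion without Dex, a fit of the 6 libraries alone gave 1 gene, and leaving out single libraries gave 1 to 3. The cause was not tested.

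With single libraries left out, some log2 fold changes took both signs. For Dex in siNS cells these were SNAI1 (-0.3157 to 0.0393), ZEB1 (-0.2271 to 0.0279) and ZEB2 (-0.0381 to 0.1227), and in siHP1γ cells ZEB1 (-0.2114 to 0.0568) and TWIST1 (-0.1201 to 0.2515). For HP1γ depletion with Dex it was TWIST1 (-0.2863 to 0.2344). For PRMT5 depletion with Dex they were ZEB1 (-0.1598 to 0.1204), ZEB2 (-0.0257 to 0.0814) and TWIST1 (-0.0958 to 0.416), and without Dex SNAI1 (-0.1554 to 0.1997) and ZEB1 (-0.0249 to 0.2363). For the altered Dex response they were VIM (-0.0269 to 0.0657) and ZEB1 (-0.1305 to 0.1649) with HP1γ depletion, and ZEB1 (-0.2986 to 0.0262) with PRMT5 depletion.

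Other alternatives turned values near 0. Library size alone gave TWIST1 0.0018 (HP1γ depletion with Dex), SNAI2 0.0097 (HP1γ depletion without Dex) and SNAI1 0.0182 (PRMT5 depletion without Dex), the last being 0.0067 by DESeq2 and 0.0061 with its size factors. With no filter ZEB1 was at -0.005 (PRMT5 depletion with Dex) and -0.0086 (response altered by HP1γ depletion), and SNAI1 at 0.0052 (PRMT5 depletion without Dex). With 10 or more counts throughout ZEB1 was at -0.0007 (PRMT5 depletion with Dex).

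With the replicate number as a replicate block, ZEB1 was at -0.0092 (PRMT5 depletion with Dex) and SNAI1 at 0.0023 (PRMT5 depletion without Dex). With this block 3 of the 7 tested genes were called for Dex in siPRMT5 cells. The fit without the block called 5.44% of all genes there. In the pairing check, 0 of 15 pairs of conditions had every same-number correlation above 0.1, and these ranged from -0.186 to 0.3146. That check takes all genes together, while ZEB1 was highest in replicate 2 of each condition.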
